A study of Mus musculus with 4 samples.

Results

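Toll-like receptors and the interleukin-1 receptor pass their signal to NF-kB through a small set of adaptors and kinases, and 7 genes of that set are described here: Tirap, Ticam1, Myd88, Irak1, Irak2, Irak3 and Traf6. They were taken by symbol as a pathway set, with earlier results of these data known, and no threshold on their signal was used. The platform annotation gives them 12 probe sets of the 45037 measured, and they are 7 of 17097 named genes. Each gene is read from its brightest probe set, the one with the highest mean over all arrays, and its other probe sets are given beside it. Lymph node B cells were compared between wild type and miR-146a transgenic mice, all male Balb/C animals aged 6 to 8 weeks, with 2 mice and 2 arrays per group. The labels describe the genotype only as a miR-146a transgene, and name neither its promoter nor its founder lines. The cells were purified by magnetic removal of other cells and of dead cells, so no antibody held the B cells themselves.

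In the classical view of the pathway, a receptor that has bound its ligand recruits MyD88, at some receptors with the help of the bridging adaptor TIRAP. MyD88 then stacks with IRAK kinases into a complex called the Myddosome, which switches on the ubiquitin ligase TRAF6 and through it the TAK1 and IKK kinases. TRIF, the product of Ticam1, serves the other branch, used by TLR3 and by internalised TLR4, which also reaches interferon genes. B cells respond through these receptors to microbial nucleic acids and lipids. NF-kB induces miR-146a, and Traf6 and Irak1 are its best known targets, with Irak2 also reported, so the microRNA is usually described as a feedback brake on this pathway.

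The mature microRNA is shown because the transgene supplies it, with its close relative miR-146b to show which bases they have in common. Bases 2 to 8, the seed that pairs with target transcripts, are in capitals.
mmu-miR-146a-5p: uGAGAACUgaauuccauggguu
mmu-miR-146b-5p: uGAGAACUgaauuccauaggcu
Both are 22 bases long in RefSeq, on GRCm38.p6 (chr11:43374435-43374456, minus strand, and chr19:46342790-46342811, plus strand). They share the seed and differ at 2 positions counted from the 5′ end, G18A and U21C with the base of miR-146a first. Among 1738 mature mouse microRNAs of the same table these were the 2 with this seed. A transcript site that pairs with the whole seed reads AGUUCUC.

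Signals are log2 values as deposited. Replicates agreed more closely in wild type (r = 0.9984 over all probe sets) than in transgenic mice (0.9893). The array of transgenic mouse 1 stood apart, with an upper quartile of 6.13 against 6.51 to 6.55 elsewhere. Its excess of 3' over middle signal for beta-actin was 0.47, and elsewhere 0.14 to 0.16. The separation was smaller for its excess of 3' over 5' signal of beta-actin, 0.38 against 0.16 to 0.28. For Gapdh its excess of 3' over 5' signal was 0.02, against 0.08 and 0.09 in wild type, and there transgenic mouse 2 stood apart at -0.20. Xist, an RNA of female cells, was at 5.96 and 6.19 on the wild type arrays and at 9.13 and 9.56 on the transgenic ones, although every mouse is labelled male. The Y-linked gene Eif2s3y was at 8.29 and 8.34 and at 7.80 and 8.00. Non-specific control probe sets averaged 2.83 to 2.95. Beyond sex, strain, age and genotype, the labels say of the mice only that they are separate animals. The p-values rest on the spread between 2 arrays per group.

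The comparison asks whether transcripts of the adaptors and kinases differ when miR-146a is over-expressed. All 7 genes were lower on both transgenic arrays than on both wild type arrays, where 31.4% of all probe sets were lower without overlap and 59.2% had a difference below 0. Among the 27022 probe sets above a filter on dim signal, which include these 7, 10748 were lower without overlap and 18447 were below 0. None of the 7 passed an adjusted p of 0.05 (limma with Benjamini-Hochberg adjustment over all probe sets), a threshold passed by 0.0466% of probe sets. At an unadjusted limma p under 0.05 there were 4, all lower, namely Irak2, Irak3, Ticam1 and Tirap, against 10.5% of all probe sets lower at that level. Of the 27022 probe sets above the filter, 4233 were lower at that level. The median difference of the 7 genes was -0.35 on the log2 scale, against -0.04 over all probe sets and -0.12 over the 27022 probe sets kept by a filter on dim signal. After the arrays were forced to one distribution by quantile normalization, 6 of the 7 were below 0 (48.6% of all probe sets) with a median of -0.12, and 4 were lower without overlap, where 26.4% of all probe sets were lower and 26.2% higher. None of the 7 passed the limma adjusted threshold after quantile normalization (1.93% of all probe sets), median centring (1.36%), a replicate block (0.0333%), the filter on dim signal (0.189%), a trended and robust eBayes (0.0577%) or averaging of a gene's probe sets (0.0903%), nor without either wild type mouse (0%).

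**Figure D1:**
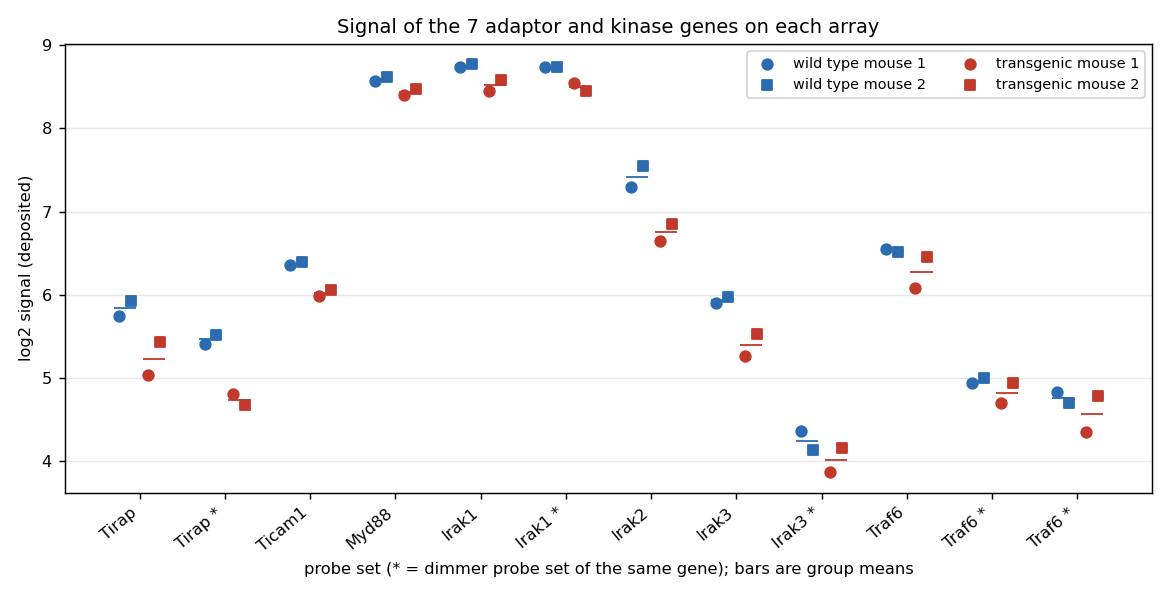
Deposited log2 signal (vertical axis) of the 12 probe sets of the 7 genes (horizontal axis) on each of the 4 arrays, blue for wild type and red for transgenic, with short bars for group means of 2. On the brightest probe sets every red point lies below both blue ones, with the narrowest gap for Traf6, between 6.46 and 6.51.

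Irak2, a kinase-like member of the Myddosome that sustains signalling to TRAF6, had the largest difference among the brightest probe sets. Its signal (probe set 1436507_PM_at, the only one of this gene) was 7.29 and 7.54 on the wild type arrays and 6.65 and 6.85 on the transgenic arrays. Both transgenic arrays were lower by more than the distance between replicates, 0.25 in wild type and 0.21 in transgenic mice. The means were 7.42 ± 0.18 and 6.75 ± 0.15 (SD, n = 2 each), a 1.59-fold lower signal. The log2 difference was -0.67 (SE 0.14, 95% interval -1.04 to -0.29, limma adjusted p = 0.205). After quantile normalization it was -0.46 (interval -0.77 to -0.15, limma adjusted p = 0.147) and the groups still did not overlap.

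Irak3 encodes IRAK-M, a relative without strong kinase activity that is best known as an inhibitor in monocytes and macrophages. Its brightest probe set (1435040_PM_at) was at 5.90 and 5.97 in wild type and at 5.27 and 5.53 in transgenic mice, so both transgenic arrays were lower. The log2 difference was -0.53 (SE 0.13, interval -0.88 to -0.19, limma adjusted p = 0.233), and after quantile normalization -0.36 (interval -0.58 to -0.15, limma adjusted p = 0.115). The dimmer probe set (1430704_PM_at) was at 4.37 and 4.13 against 3.87 and 4.16, a difference of -0.23 (SE 0.15, limma adjusted p = 0.553). On that probe set the groups overlapped, and its signal lay closer to the non-specific controls.

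Irak1, the kinase that binds TRAF6 in the Myddosome and a known miR-146a target, was among the brightest of the 45037 probe sets, above 92.7% of them on its brightest probe set. That probe set (1448668_PM_a_at) read 8.74 and 8.77 in wild type and 8.45 and 8.59 in transgenic mice, a difference of -0.24 (SE 0.11, interval -0.52 to 0.04, limma adjusted p = 0.417). The second one (1460649_PM_at) read 8.74 and 8.74 against 8.54 and 8.45, a difference of -0.24 (SE 0.10, limma adjusted p = 0.39). The probe sets of Irak1 therefore gave the same size of difference, 1.18-fold lower on each, although transgenic mouse 1 was the lower on one and transgenic mouse 2 on the other. After quantile normalization both sets of arrays overlapped, with differences of -0.07 (interval -0.32 to 0.19) and -0.08 (interval -0.47 to 0.32).

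Myd88, the adaptor on which the Myddosome is built, differed least. Its probe set (1419272_PM_at) read 8.57 and 8.62 in wild type and 8.40 and 8.48 in transgenic mice. Means were 8.60 ± 0.04 and 8.44 ± 0.06 (SD, n = 2 each), a difference of -0.16 (SE 0.10, interval -0.42 to 0.10, limma adjusted p = 0.537). The sign turned after quantile normalization, to 0.009 (interval -0.28 to 0.29), where the groups overlapped. A fall of 0.5 on the log2 scale lay outside both intervals.

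Of the bridging adaptors, Tirap, which brings MyD88 to receptors at the membrane, differed more. Its brightest probe set (1457676_PM_at) was at 5.75 and 5.93 in wild type and at 5.04 and 5.43 in transgenic mice, a 1.52-fold lower mean. The log2 difference was -0.60 (SE 0.17, interval -1.05 to -0.16, limma adjusted p = 0.272). The second probe set (1418685_PM_at), at 5.41 and 5.52 against 4.81 and 4.67, differed by -0.73 (SE 0.11, interval -1.02 to -0.44), and its limma adjusted p of 0.142 was the smallest of the 12. Both probe sets of Tirap were free of overlap, with transgenic mouse 1 the lower on the first and transgenic mouse 2 on the second. After quantile normalization they differed by -0.45 and -0.60 (limma adjusted p = 0.119 and 0.102).

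Ticam1, whose product TRIF opens the interferon branch, was lower by a smaller amount and more evenly. Its probe set (1454676_PM_s_at) read 6.35 and 6.39 in wild type and 5.99 and 6.06 in transgenic mice. The mean was 1.28-fold lower, a log2 difference of -0.35 (SE 0.10, interval -0.61 to -0.09, limma adjusted p = 0.272). The suffix of this probe set marks probes shared by several transcripts, which the signal cannot separate. After quantile normalization the arrays overlapped and the difference was -0.12 (interval -0.44 to 0.19).

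Traf6, the ubiquitin ligase that the adaptors and kinases converge on and the best known target of miR-146a, differed mainly on 1 of the transgenic arrays. Its brightest probe set (1421376_PM_at) read 6.55 and 6.51 in wild type, 6.08 in transgenic mouse 1 and 6.46 in transgenic mouse 2. Transgenic mouse 2 was thus 0.07 below the wild type mean of 6.53, and transgenic mouse 1 was 0.45 below it. The difference of the means was -0.26 (SE 0.16, interval -0.67 to 0.15, limma adjusted p = 0.525). It was -0.03 after quantile normalization (interval -0.24 to 0.19). The difference of Irak2 after quantile normalization, -0.46, lay outside that interval, but its own interval (-0.77 to -0.15) overlapped that of Traf6. As deposited, the difference of Irak2, -0.67, was at the lower end of the interval of Traf6 and not outside it.

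The dimmer probe sets of Traf6 showed the same division between transgenic arrays. The one at 4.94 and 5.0 in wild type (1446940_PM_at) was at 4.70 in transgenic mouse 1 and 4.95 in transgenic mouse 2, a difference of -0.15 (SE 0.13, limma adjusted p = 0.637). The other (1421377_PM_at), at 4.83 and 4.70, was at 4.35 and 4.78, a difference of -0.20 (SE 0.18, limma adjusted p = 0.65). The groups overlapped on both of these probe sets.

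**Figure D2:**
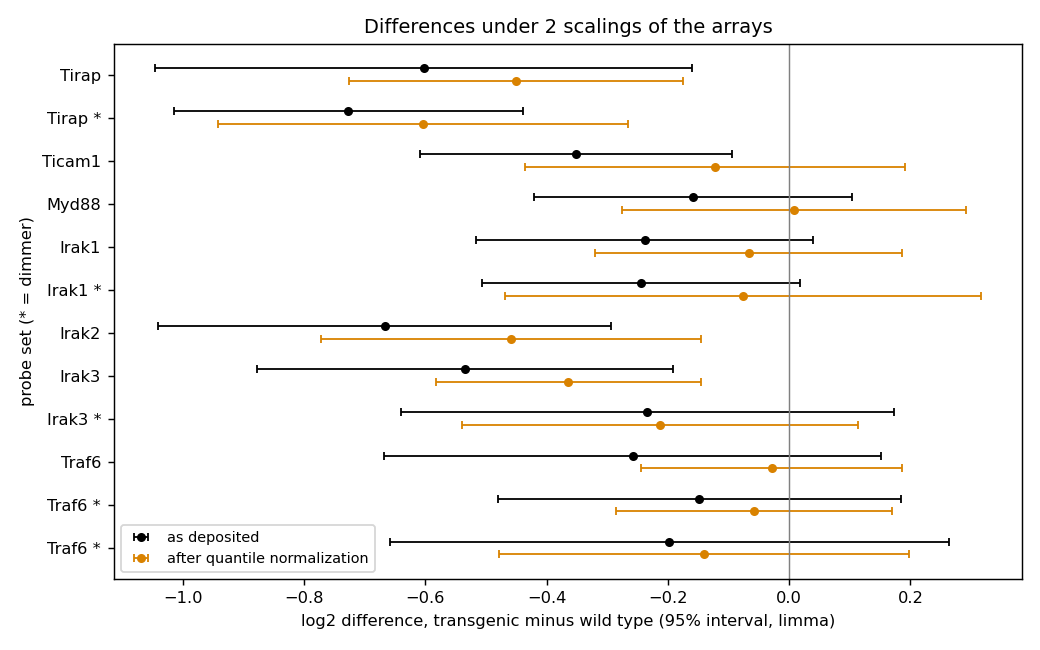
Log2 difference, transgenic minus wild type (horizontal axis), with its 95% limma interval for each of the 12 probe sets (vertical axis), as deposited in black and after quantile normalization in orange. The intervals of Irak2, of the brightest probe set of Irak3 and of both probe sets of Tirap stay below 0 under both scalings, while that of Ticam1 spans 0 after quantile normalization and those of Myd88, Irak1 and Traf6 span 0 under both.

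The differences of the 7 genes ranged from -0.67 to -0.16, and their 95% intervals overlapped. A gap between a pair of genes on the same array does not depend on a shift of equal size at all signals. The array of transgenic mouse 1 was not shifted equally. Its median was 4.48 against 4.59 to 4.61 elsewhere, and its upper quartile 6.13 against 6.51 to 6.55. A shift that varies with signal can remain in the gaps of the deposited values. The gap between Irak1 and Irak2 was 1.45 and 1.23 on the wild type arrays and 1.80 and 1.73 on the transgenic arrays. It was wider by 0.43 in transgenic mice, without overlap. Between Myd88 and Irak2 the gap was wider by 0.51, the largest change of the 21 pairs among the 7 genes. Irak1 and Traf6 kept nearly the same gap, at 2.19 and 2.26 against 2.36 and 2.13, a change of 0.02 with overlapping groups. No test of these gaps was run, and whether the genes differed by unequal amounts was not tested.

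On the brightest probe sets transgenic mouse 1 lay further below wild type than transgenic mouse 2 for each of the 7 genes, and on the second probe sets of Tirap and Irak1 the order was the opposite. Against the wild type mean, the brightest probe sets of the 7 genes were lower by a median of 0.45 on the array of transgenic mouse 1 and of 0.32 on that of transgenic mouse 2. The medians over all probe sets were -0.11 and 0.004. Over the 27022 probe sets above the filter on dim signal, which include these 7, they were -0.25 and -0.0045. Irak2 was 0.77 lower on the array of transgenic mouse 1 and 0.56 lower on that of transgenic mouse 2, and Tirap 0.80 and 0.41 lower. With transgenic mouse 1 left out, Irak3 passed (log2 difference -0.40, limma adjusted p = 0.0456), where 9.19% of all probe sets passed. With transgenic mouse 2 left out, 6 of the 7 genes passed, all but Myd88, where 42.4% of all probe sets passed. A fit without one transgenic mouse takes its spread from the close wild type pair alone. For Traf6 the difference was -0.07 when transgenic mouse 1 was dropped and -0.45 when transgenic mouse 2 was.

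**Figure D3:**
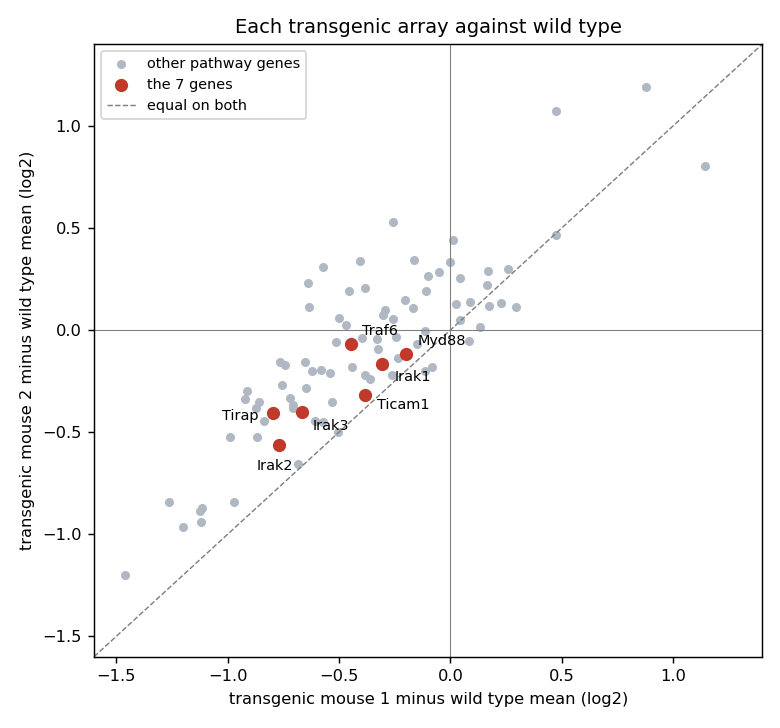
Log2 difference of transgenic mouse 1 (horizontal axis) and of transgenic mouse 2 (vertical axis) from the mean of the wild type arrays, which both axes share, for the 7 genes (red) and 80 other pathway genes (grey). All 7 red points lie above the dashed line of equality, with Irak2 at -0.77 and -0.56 and Traf6 at -0.45 and -0.07.

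Lower signal of these genes came with lower signal of B cell genes and higher signal of other cells' genes in the same transgenic arrays. B cell markers were present but not alone. Cd79b, a chain of the B cell receptor, was at 11.19 and 11.22 in wild type and 9.95 and 10.45 in transgenic mice. All 14 measured B cell markers were lower without overlap (median -0.94), and their summed signal, as log2, was 14.21 and 14.27 against 13.35 and 13.46. T cell transcripts were also bright in wild type, with Cd3d at 11.42 and 11.39, and at 11.65 and 11.75 in transgenic mice. The mean signal of the T cell list was 9.83 and 9.89 in wild type and 10.08 and 10.28 in transgenic mice, where that of the B cell list was 9.86 and 9.90 and then 8.90 and 9.07. RNA with T cell markers was thus plentiful on all 4 arrays labelled as B cells. Of 11 T cell markers 9 were higher and 1 was lower without overlap (median 0.29, summed signal 13.62 and 13.64 against 13.91 and 14.10). Of 11 neutrophil markers 10 were higher without overlap (median 1.81, summed signal 8.75 and 8.75 against 10.73 and 11.19), and 2 of them passed the threshold. These counts stand beside 31.4% of all probe sets lower and 17.7% higher without overlap.

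Myeloid cells also use these adaptors, and their other markers differed less. Of 9 monocyte and macrophage markers 5 were higher and none lower without overlap (median 0.14, summed signal 11.41 and 11.39 against 11.44 and 11.80). Their differences ranged from -0.14 to 1.19. After quantile normalization 7 were higher without overlap, where 26.2% of all probe sets were, and 2 passed as higher, where 0.893% did. The integrin chain Itgam, the dimmest of these markers, lay at 3.36 and 3.51 against 3.33 and 3.54, near the non-specific controls on all 4 arrays. Among 5 dendritic cell markers 2 were lower and 2 higher without overlap (summed signal 9.05 and 9.11 against 8.81 and 9.17), and among 7 natural killer cell markers 1 and 3 (10.82 and 10.83 against 10.82 and 11.06). Of 5 plasma cell markers 4 were lower and 1 higher (11.29 and 11.32 against 10.64 and 10.83). The part of these shifts, and of the array of transgenic mouse 1, in the differences of the 7 genes was not tested. Fewer cells of a type and less RNA per cell cannot be told apart in bulk samples.

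**Figure D4:**
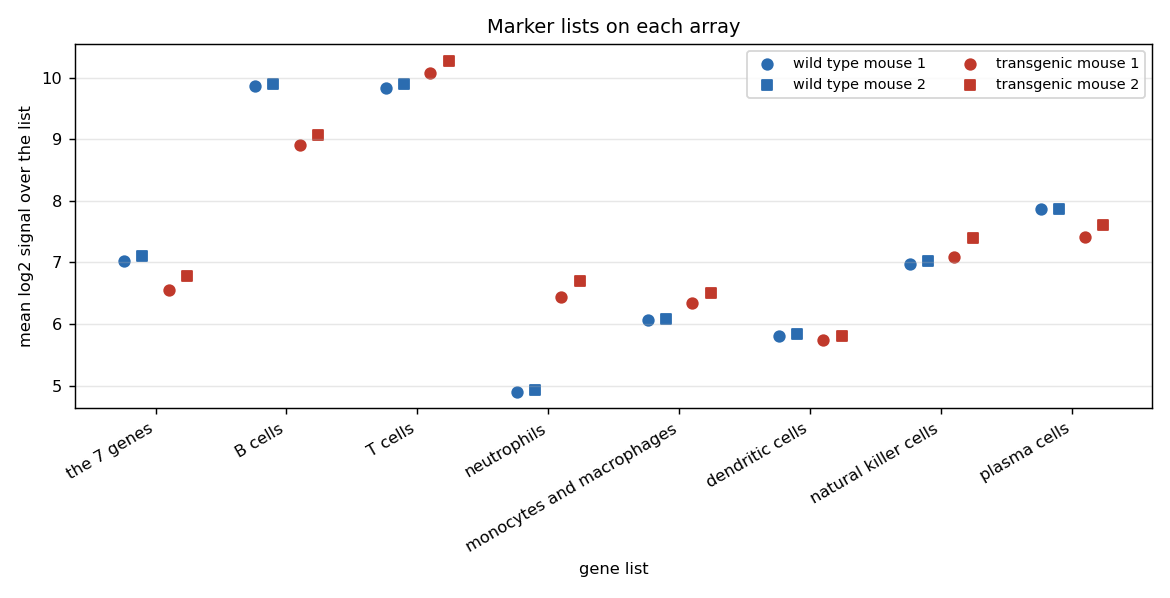
Mean log2 signal (vertical axis) of the 7 genes and of 7 lists of cell type markers (horizontal axis) on each array, blue for wild type and red for transgenic. The 7 genes and the B cell and plasma cell markers are lower on both transgenic arrays, and neutrophil, T cell, monocyte and macrophage and natural killer cell markers are higher.

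The rest of the pathway was read from 7 lists by role, in which 80 of 90 genes were measured under a single symbol. Irak4, the kinase that phosphorylates Irak1, was among those without a probe set named for it alone. None of the 80 passed over all probe sets by limma (25 were lower and 4 higher at an unadjusted p under 0.05, against 10.5% and 3.21% of all probe sets). As deposited 41 were lower and 13 higher without overlap, where 31.4% and 17.7% of all probe sets were, with a median of -0.21. Of the 27022 probe sets above the filter on dim signal, 10748 were lower and 3974 higher without overlap, with a median of -0.12. The median of the 80 genes was -0.39 on the array of transgenic mouse 1 and -0.06 on that of transgenic mouse 2. After quantile normalization the median was -0.06, and 9 passed, 7 lower and 2 higher, where 1.04% and 0.893% of all probe sets did.

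**Figure D5:**
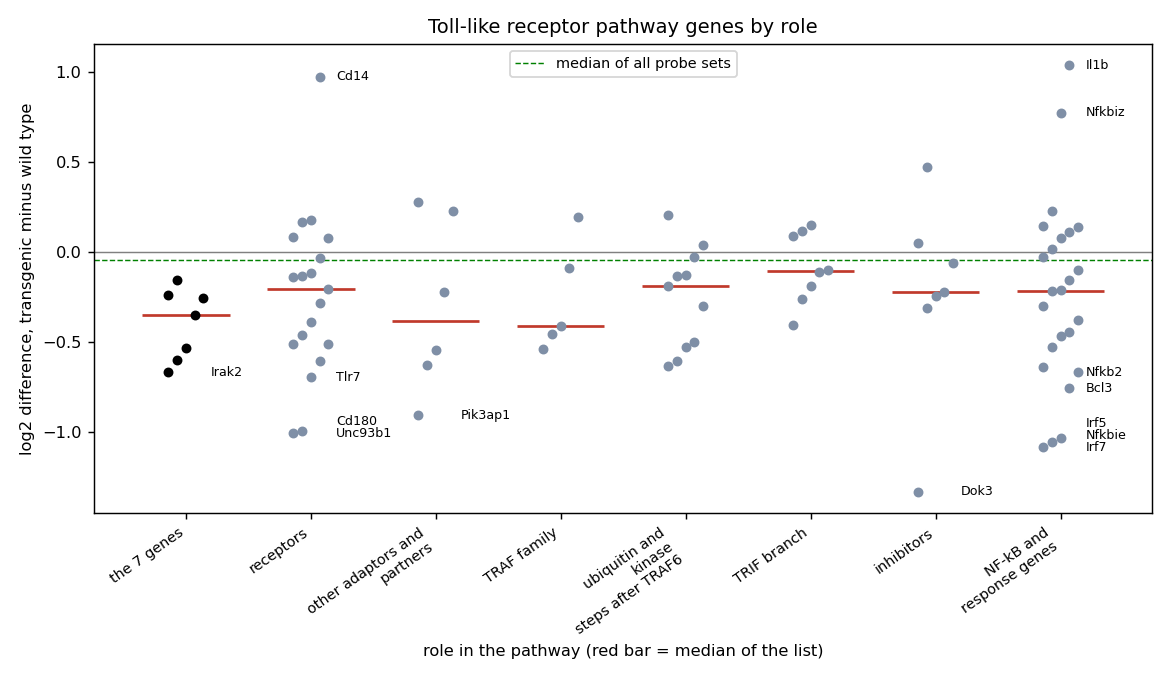
Log2 difference, transgenic minus wild type (vertical axis), of the 7 genes and of the 80 measured pathway genes by role (horizontal axis), with red bars for list medians and a dashed line for the median of all probe sets (-0.04). The 7 genes, between -0.67 and -0.16, lie inside the range of the other roles, which reach from -1.33 for Dok3 to 1.04 for Il1b.

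Upstream of the adaptors, 19 receptors and their partners had a median of -0.20, with 9 lower and 2 higher without overlap. With transgenic mouse 1 dropped it was -0.06, and with transgenic mouse 2 dropped -0.51. Unc93b1, the chaperone that carries nucleic acid sensing receptors to endosomes, was at 9.34 and 9.37 against 8.23 and 8.47 (log2 difference -1.01, SE 0.12, limma adjusted p = 0.113; -0.85 after quantile normalization, limma adjusted p = 0.0279). Cd180, a receptor-like protein of B cells, and its partner Ly86 differed by -0.99 and -0.51, and Cd180 passed after quantile normalization (limma adjusted p = 0.0327). Cd14, a lipopolysaccharide co-receptor of myeloid cells, differed by 0.97, from 4.12 and 4.04 to 5.22 and 4.88. Larger differences than those of the adaptors were thus seen among receptor partners in both directions.

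At the level of the adaptors themselves, 6 further genes had a median of -0.38 (-0.18 without transgenic mouse 1, -0.59 without transgenic mouse 2). Pik3ap1, the adaptor BCAP of B cell receptor and Toll-like receptor signalling, was at 10.10 and 10.06 against 9.11 and 9.24 (log2 difference -0.91, SE 0.10, limma adjusted p = 0.106; -0.76 after quantile normalization, limma adjusted p = 0.0406). A dim probe set of Pik3ap1, at 4.52 and 4.47 in wild type, differed by 0.02. Tollip, which holds IRAK1 back in resting cells, differed by -0.63 on its brightest probe set (-0.38 without transgenic mouse 1) and by -0.03, with overlap, on a dim one. Tifa, which helps TRAF6 to oligomerise, differed by -0.54. Sarm1, an inhibitor of TRIF, differed by 0.28 on its brightest probe set and by -0.008 and 0.16, with overlap, on dimmer ones. The mean over its probe sets differed by 0.14.

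Of the other TRAF genes 5 were measured. Among these, 3 were lower and 1 higher without overlap (median -0.41, and -0.19 after quantile normalization), and none passed under either scaling on its brightest probe set. Traf1 differed by -0.09 there, with overlap, but by 0.49 on a second probe set that was higher without overlap (0.69 after quantile normalization, limma adjusted p = 0.049). Traf2 differed by -0.54, Traf5 by -0.46, Traf7 by -0.41 and Traf4 by 0.19, and without transgenic mouse 1 Traf5 differed by -0.17 and Traf7 by -0.20. A dimmer probe set of Traf4 differed by -0.05, with overlap. The list of other TRAF genes was 0.62 lower on the array of transgenic mouse 1 and 0.17 lower on that of transgenic mouse 2.

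Downstream of TRAF6, 11 genes of ubiquitin chain formation and of the TAK1 and IKK kinases had a median of -0.19, and -0.05 after quantile normalization (-0.14 without transgenic mouse 1, -0.46 without transgenic mouse 2). Ube2v1, the partner of the ubiquitin-conjugating enzyme used by TRAF6, differed by -0.50 (SE 0.10, limma adjusted p = 0.185), Tab1, a TAK1 partner, by -0.53, Map3k7, which is TAK1, by -0.63, and Ikbkg, the NEMO subunit of IKK, by -0.60. Without transgenic mouse 1 Map3k7 differed by -0.34 and Ikbkg by -0.30, and the mean over a gene's probe sets differed by -0.26 and -0.01. The dimmer probe sets of Ikbkg differed by -0.19 to 0.32, and those of Map3k7 by -0.28 to -0.03. In the TRIF branch after Ticam1, 8 genes had a median of -0.11, which was 0.05 after quantile normalization and 0.08 without transgenic mouse 1. Ripk3, a kinase of necroptosis, differed by -0.40, Fadd by -0.19, Irf3 by -0.11 and Casp8 by 0.15. Without transgenic mouse 1 Ripk3 differed by -0.16, Fadd by -0.04 and Irf3 by -0.07. The signs of Fadd and Irf3 on these probe sets turned after quantile normalization (0.04 and 0.03). The probe sets of Irf3 disagreed. One differed by -0.04 with overlap, and the dimmest, at 6.40 and 6.33 against 4.89 and 5.82, by -1.01 (-0.85 after quantile normalization), without overlap under either scaling. The mean of the probe sets of Irf3 differed by -0.39.

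Inhibitors of the pathway differed in both directions, with a median over 7 genes of -0.22 (-0.03 after quantile normalization, -0.005 without transgenic mouse 1). Dok3, an adaptor that restrains B cell receptor and Toll-like receptor signalling, was at 8.14 and 8.25 against 6.73 and 6.99 (log2 difference -1.33, SE 0.13, limma adjusted p = 0.0935; -1.14 after quantile normalization, limma adjusted p = 0.0206). Tnfaip3, the ubiquitin-editing enzyme A20 that acts on TRAF6, was at 11.29 and 11.25 against 11.74 and 11.74 (log2 difference 0.47, SE 0.10, limma adjusted p = 0.194), and a dimmer probe set differed by 1.78. Sigirr, a receptor that interferes with the Myddosome, differed by -0.24 and Zc3h12a, an RNase of inflammatory transcripts, by -0.31 (-0.18 without transgenic mouse 1).

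Of 24 NF-kB and response genes, which lie at the end of the pathway, 14 were lower and 6 higher without overlap (median -0.21; -0.09 after quantile normalization). Dropping transgenic mouse 1 gave a median of -0.15, and dropping transgenic mouse 2 gave -0.36. Irf7 and Irf5, interferon regulatory factors that bind MyD88, differed by -1.08 and -1.03 (SE 0.12 each, limma adjusted p = 0.105 for both), and both passed after quantile normalization (-0.90 and -0.83, limma adjusted p = 0.0272 and 0.0383). Nfkb2 differed by -0.67. Il1b, an inflammatory cytokine of myeloid cells, was at 5.95 and 6.03 against 6.87 and 7.18 (log2 difference 1.04, limma adjusted p = 0.129; 1.24 after quantile normalization, limma adjusted p = 0.0139). The neutrophil markers were higher on the same arrays.

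Genes whose pattern over the 4 arrays came closest to each of the 7 were found from values centred on each gene's own mean, among 12024 genes above the filter on dim signal. Likeness was the root mean square difference on the log2 scale. For Irak2 the closest were Fdft1 (0.032), Tmem231 (0.035) and Thoc5 (0.038), and 162 genes lay within 0.1. For Traf6 they were Lyar (0.003), Dtymk (0.007) and Gch1 (0.007), with 3089 genes within 0.1. For Irak1 they were Ubqln4, Nudt4 and Brd8 (0.005 to 0.009), for Myd88 Slc7a7, Pdss2 and Rpap3 (0.004 to 0.007), and for Ticam1 Hgs, Pbxip1 and Rps6kb2 (0.009 to 0.011). For Tirap they were Fxr2, Nudt8 and Slc15a3 (0.008 to 0.016), and for Irak3 As3mt, Ap1m1 and Tbx6 (0.008 to 0.012). Of the 7, Irak2 had the fewest genes within that distance. It also varied most about its own mean, with a root mean square of 0.353 against 0.186 for Traf6 and 0.086 for Myd88. The same distance was used for all 7 genes, so the counts also depend on how much each gene varied. Over 4 arrays such likeness is a description only.

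Because the 7 genes were all lower as deposited, their promoters were searched in RefSeq windows of 300 bases that end 50 bases after the start site (GRCm38.p6). All 7 genes matched, with 10 windows. The GC box, GGGCGG on either strand, was in at least 1 window of each of the 7 genes. Counted by window, it was in 9 of their 10, against 35.7% of 32851 mouse promoter windows. The windows of Irak1 overlap each other, as do those of Tirap, so that a GC box of each gene was counted more than once. The E-box CACGTG was in 1 window each of Irak3 and Ticam1, against 7.15% of windows. The interferon response core (GAAA, any 2 bases, GAAA) was in that of Myd88 alone, against 3.44%. Neither the NF-kB motif (in 4.51% of windows), AGGAAGT of ETS factors (9.35%) nor TGACTCA of AP-1 (5.2%) was found in the windows of the 7 genes, on either strand. No matches of different motifs overlapped. The promoters of Myd88, which holds the interferon response core, and of Traf6, which holds a pair of GC boxes, are shown as the 250 bases before the start site, with these matches in capitals.
Myd88, chr9:119340019-119340268, minus strand: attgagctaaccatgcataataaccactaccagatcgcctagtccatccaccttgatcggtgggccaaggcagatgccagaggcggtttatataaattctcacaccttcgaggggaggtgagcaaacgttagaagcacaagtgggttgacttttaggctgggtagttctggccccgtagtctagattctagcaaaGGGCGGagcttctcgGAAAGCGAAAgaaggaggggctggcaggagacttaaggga
Traf6, chr2:101678170-101678419, plus strand: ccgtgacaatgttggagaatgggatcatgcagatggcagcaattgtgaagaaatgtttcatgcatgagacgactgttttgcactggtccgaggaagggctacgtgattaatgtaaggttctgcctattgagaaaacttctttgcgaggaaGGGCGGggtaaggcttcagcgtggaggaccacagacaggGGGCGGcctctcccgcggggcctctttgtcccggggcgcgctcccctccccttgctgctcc
A match describes the letters of a window and is no measured site. In these windows the GC boxes of Traf6 lie at -100 to -95 and -61 to -56, and in Myd88 the GC box lies at -55 to -50 and the interferon response core at -40 to -31, counted from the start site.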

How the data were processed

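RNA from 4 mice was biotin-labelled with a 3' in vitro transcription kit, per the labels' protocols. The authors deposited log2 signals, 1 per probe set and array, and their background correction, normalization and probe summary are not given in the sources used here. That the scale is log2 was taken from the values' range. The 104 control probe sets were left out, and 45037 were tested. Of these, 28898 carried 1 gene symbol in the platform annotation, 551 several and 15588 none. All 12 member probe sets matched RefSeq genes of GRCm38.p6 by Entrez ID.

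Groups came from sample titles. The comparison used lmFit and eBayes of limma 3.58.1, run in R 4.3.3 (no block, two-sided, Benjamini-Hochberg over all probe sets, threshold 0.05, 2 residual and 2.69 prior degrees of freedom). The fit was tested on simulated data. The number of arrays limits the precision. The members and gene lists were chosen with earlier results of these data known, so no list was given a test of its own. Named were all 7 members, up to 4 genes per pathway list by smallest p, and the 3 genes nearest in pattern to each member. Genes named from the marker and sex-linked lists serve as examples and were chosen after their values were seen. Alternatives were quantile normalization, median centring, a replicate block, leaving out each array, the mean over a gene's probe sets, an eBayes that was trended and robust, another threshold, and dropping probe sets with a mean under 4.10, the 40th percentile. Protein sequences were not used here. Figures were drawn with matplotlib 3.10.9.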

Additional observations from a re-analysis of the deposited data

How the results depend on the processing

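The 7 genes were below 0 under every alternative run except Myd88 after quantile normalization (0.0087). None passed under the replicate block, quantile normalization, median centring, the filter, the trended eBayes or the mean of probe sets. Leaving out 1 array gave 0 to 6 of the 7 past the threshold. The differences then ranged from -0.80 to -0.41 for Tirap, -0.39 to -0.32 for Ticam1, -0.20 to -0.12 for Myd88, -0.31 to -0.17 for Irak1, -0.79 to -0.54 for Irak2, -0.67 to -0.40 for Irak3 and -0.45 to -0.0686 for Traf6. Over all probe sets 21 passed as deposited, 870 after quantile normalization, 614 after median centring, 51 with the filter, 139 at an adjusted p of 0.1 and 0 to 19110 with 1 array left out. Among pathway genes 9 passed after quantile normalization, 8 after median centring and 0 to 52 with 1 array left out. Fadd and Irf3 turned to 0.042 and 0.029 after quantile normalization. The cause of these shifts was not tested. Mice sharing a number had nearly uncorrelated deviations (0.0145). With so few arrays that value cannot decide whether mice sharing a number were paired, and the labels do not say. The replicate block gave 15 calls and left every member short of the threshold.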
